A study of Mus musculus with 13 samples.

Results

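The 10 genes described here encode the TGF-β ligands (Tgfb1, Tgfb2 and Tgfb3), their receptors (Tgfbr1, Tgfbr2 and Tgfbr3), 3 latent TGF-β binding proteins (Ltbp1, Ltbp2 and Ltbp3) and the inhibitory SMAD Smad7. They were chosen by symbol, matched to the gene identifiers of the count files through the mouse annotation of GRCm39, and all 10 were found among the 57010 genes listed and among the 15034 genes with enough counts to be tested. RNA was sequenced from wild-type (WT) mouse embryonic fibroblasts (MEFs), primary cells grown from embryos after the viscera were removed. In each of 4 groups there were cells numbered mouse 4, 5 and 6: untreated WT MEFs (control), untreated WT MEFs made senescent with etoposide, a topoisomerase II poison that breaks DNA (senescent), and such senescent MEFs treated with 100 µg/mL or 300 µg/mL Fucoidan-FV, a sulfated polysaccharide of brown seaweed (FV 100 and FV 300). Per the study's methods, etoposide was given at 2 µM for 24 h, the cells were kept for 5 days, and RNA was taken 12 h after the start of treatment. The treated labels read "Eto" and those of the untreated senescent cells "Eo", which was read as the same agent. All FV samples are also senescent, so a difference between FV and control cells holds the etoposide and the fucoidan together, and there was no control culture given fucoidan.

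TGF-β is secreted as a dimer bound to its own propeptide, and latent TGF-β binding proteins tie this inactive complex to the extracellular matrix until integrins, proteases or other factors release it. The freed ligand binds the type II receptor, which recruits and phosphorylates the type I receptor, and the pair then activates SMAD2 and SMAD3. The type III receptor betaglycan presents ligand, TGF-β2 above all, to the signalling pair, and SMAD7 is induced by the pathway and turns the receptors off. In fibroblasts the pathway is known for matrix production, contractile gene expression and growth arrest, and TGF-β family ligands are among the factors that senescent cells secrete.

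The 13 libraries held between 22782536 and 31278750 expected counts, and control mouse 5 had a pair of libraries, 5(1) and 5(2), that were summed. Cdkn1a, the cell cycle inhibitor p21, stood at 373 to 527 CPM (counts scaled to library size) in control cells and 1520 to 1870 CPM in senescent cells, which checks the senescent label. Fibroblast markers summed to 10000 to 15900 TPM (a level per transcript length) in every sample, of which Vim alone held 5970 to 10300 TPM. Pdgfra (0.38 to 7.48 TPM), Lum (0 to 6.78 TPM) and Dcn (0.675 to 171 TPM) were low in some samples. Some markers of other cells were at or near 0: Cldn5 was at 0 TPM in every sample, Cdh5 at up to 0.12, Ptprc at up to 0.37, Epcam at up to 0.38 and Myod1 at up to 0.04 TPM. Others of the same lists were higher in their highest sample. Lyz2 reached 11.6 TPM, Tyrobp 5.9, Adgre1 3.65 and Csf1r 3.41 TPM among macrophage markers. Tek and Pecam1 among endothelial markers reached 2.83 and 1.11 TPM, and Map2 and Sox10 among neural markers 19.1 and 2.3 TPM. Some of these lists moved with the groups. Summed macrophage markers ran from 0.26 to 3.38 TPM in control, 1.66 to 12 in senescent, 6.82 to 16.5 in FV 100 and 7.7 to 12.6 TPM in FV 300 samples. Summed endothelial markers were higher in every FV sample (2.51 to 4.28 TPM in FV 100 and 1.41 to 3.44 in FV 300) than in control (0.05 to 0.57) or senescent samples (0.41 to 0.92). Muscle markers (Acta1, Des), parts of which fibroblasts also express, summed to 202 to 277 TPM in control and 242 to 315 in senescent samples, above 134 to 210 in FV 100 and 121 to 185 in FV 300 apart from an overlap of FV 100 with control. Neural markers (Tubb3) summed to 47.6 to 89.8 TPM in control, 47.5 to 49 in senescent, 85.9 to 126 in FV 100 and 87.1 to 107 in FV 300 samples, and epithelial markers overlapped in all 4 groups, from 0 to 2.05 TPM. The part of these in the results was not tested.

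Library differences of 2 kinds touch the members. Genes with over 75% of their exonic bases in just 1 annotated transcript moved together between libraries, against genes with under 50% such sequence, by −1.21 (control mouse 6) to 0.99 (FV 100 mouse 5) on the log2 scale. The libraries of control mouse 5 were on opposite sides, at −0.97 for 5(1) and 0.82 for 5(2). Tgfb3 (85.6% such sequence), Tgfb1 (84.7%) and Smad7 (73.7%) are the most exposed members and Tgfbr2 (0.876%) the least. Also, senescent mouse 6 stood apart. Its long genes (at least 7632 exonic bases) were lower than its short genes (at most 3259) by a difference of −1.24 relative to the mean of all samples, against −0.31 to 0.36 in the other 11 samples. Its GC-rich genes were relatively high, by a difference of 0.79, against −0.31 to 0.19 elsewhere. Results that rest on this sample are therefore given with and without it.

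The promoter windows of the members differed within the ligands as well as between ligands and receptors. They are the 250 bases before the transcription start in RefSeq annotation on the GRCm38.p6 build, which held 7 of the 10 members, and Tgfb3, Tgfbr3 and Smad7 are not printed. The sequences shown are those of Tgfb1 and Tgfb2, a pair of ligands whose starts differ in kind, and of Tgfbr2 and Ltbp1, the members called in both FV groups against control. Capitals mark matches, on either strand, to the GC box GGGCGG, the AP-1 site TGANTCA, the SMAD box CAGAC or the TATA box TATAAA, and no matches overlap.
Tgfb1, chr7:25686752-25687001, plus strand: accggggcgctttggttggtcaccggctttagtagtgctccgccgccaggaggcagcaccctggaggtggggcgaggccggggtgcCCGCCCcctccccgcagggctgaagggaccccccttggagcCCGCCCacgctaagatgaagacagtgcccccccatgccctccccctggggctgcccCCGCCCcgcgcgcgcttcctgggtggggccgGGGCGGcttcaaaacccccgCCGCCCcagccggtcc
Tgfb2, chr1:186705990-186706239, minus strand: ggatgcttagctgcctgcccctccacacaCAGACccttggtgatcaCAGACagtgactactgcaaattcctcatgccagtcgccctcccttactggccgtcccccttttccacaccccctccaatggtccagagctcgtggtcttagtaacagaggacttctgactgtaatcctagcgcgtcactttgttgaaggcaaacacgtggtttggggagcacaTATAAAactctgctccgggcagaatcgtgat
Tgfbr2, chr9:116175364-116175613, minus strand: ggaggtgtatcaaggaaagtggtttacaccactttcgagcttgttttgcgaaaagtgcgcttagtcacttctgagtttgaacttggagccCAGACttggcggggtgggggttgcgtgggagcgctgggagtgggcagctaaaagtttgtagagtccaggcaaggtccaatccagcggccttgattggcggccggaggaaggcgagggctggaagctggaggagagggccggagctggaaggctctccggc
Ltbp1, upstream start, chr17:75005279-75005528, plus strand: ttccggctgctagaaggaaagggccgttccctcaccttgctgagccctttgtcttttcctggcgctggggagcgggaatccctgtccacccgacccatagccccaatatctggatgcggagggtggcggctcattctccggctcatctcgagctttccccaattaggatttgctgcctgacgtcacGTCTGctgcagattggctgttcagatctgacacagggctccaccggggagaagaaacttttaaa
Ltbp1, downstream start, chr17:75178531-75178780, plus strand: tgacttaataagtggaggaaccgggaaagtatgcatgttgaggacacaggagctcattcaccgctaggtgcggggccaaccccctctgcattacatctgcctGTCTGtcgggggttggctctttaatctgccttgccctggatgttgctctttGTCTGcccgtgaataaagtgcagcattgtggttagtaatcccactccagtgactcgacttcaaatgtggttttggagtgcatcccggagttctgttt

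The Tgfb1 window held 5 GC boxes, no TATA box and 75.2% G and C. The first Tgfbr1 window, not printed, also lacked a TATA box, with 2 GC boxes and 74.8% G and C. The Tgfb2 window held a TATA box 31 to 26 bases before the start and 2 SMAD boxes. A single SMAD box stood in the Tgfbr2 window, 160 to 156 bases before the start, and Ltbp1 had 1 before its upstream start and 2 before its downstream start. Among all 32841 RefSeq promoter windows of this length, 32.7% held the GC box, 12.4% the TATA box, 42.2% the SMAD box and 6.75% the AP-1 site, which matched in no member window. These matches describe letters in the windows and were not tied to the expression values.

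Per transcript length, Ltbp2 and Ltbp3 had the highest mean levels of the members and Tgfbr1 and Tgfbr3 the lowest. Over the 12 samples the mean level was 473 TPM for Ltbp2 (329 to 618), 140 TPM for Ltbp3 (71.6 to 193), 87.7 TPM for Tgfb3 (11.8 to 210), 61.6 TPM for Ltbp1 (28.2 to 118), 53.8 TPM for Tgfbr2 (13.5 to 107) and 50.8 TPM for Tgfb2 (23 to 88.8). Smad7 followed with 40.7 TPM (26.8 to 69.7), Tgfb1 with 33.8 TPM (17.8 to 60.2), Tgfbr1 with 11.8 TPM (1.81 to 18.3) and Tgfbr3 with 6.64 TPM (0.57 to 15.9). Ltbp2 lay above every other member in every sample. From Ltbp3 to Tgfbr3 the ranges overlapped from each neighbour to the next, so the order of neighbours there is not larger than the spread between samples. TPM depends on the transcript lengths that RSEM assigned to a gene in each library, and for Tgfb1 this length ran from 866 to 1828 bases.

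**Figure D1:**
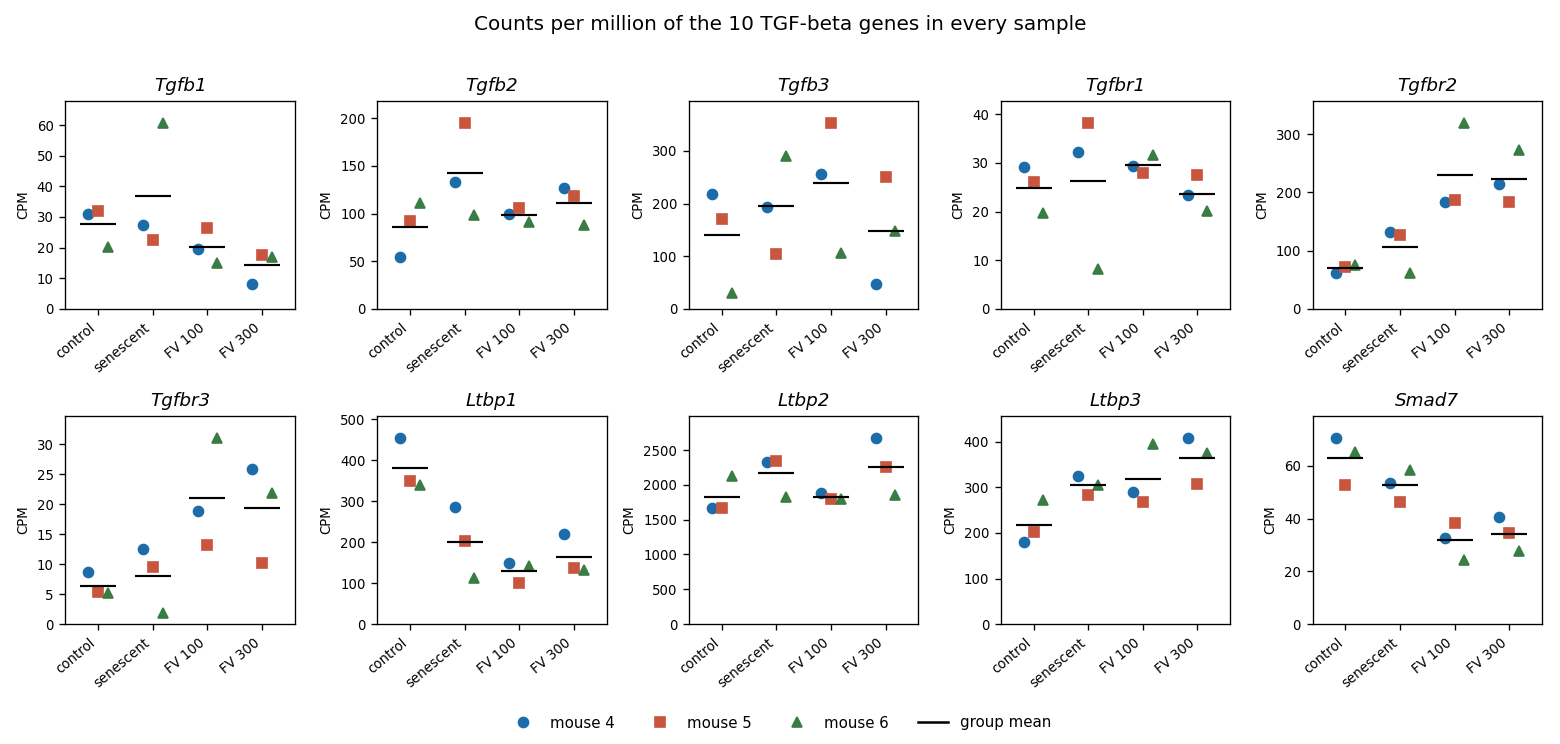
Library-scaled counts (CPM, linear axis from 0) of each of the 10 genes in control, senescent, FV 100 and FV 300 samples, with 1 point per mouse (shapes and colours) and a line at the mean of 3. Tgfbr2 sits at 183 to 319 CPM in the 6 FV samples and at 62.1 to 132 CPM in the other 6, while Tgfb3 spreads widely inside every group.

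Against senescent cells, no member passed the test at either dose, and none passed it in senescent against control cells. In FV 100 against control cells 4 of the 10 members passed the adjusted p alone, beside 26.6% of all genes. In FV 300 against control cells 4 did, beside 24.4%. The test was the edgeR quasi-likelihood test with Benjamini-Hochberg adjustment over the 15034 genes, and a gene was called at an adjusted p under 0.05 with an absolute log2 fold change over 1. In senescent against control cells 0 of 10 members were called, against 8.42% of all genes tested, 0 passed the adjusted p alone (11.7% of all genes), 3 had an unadjusted p under 0.05 (25.4%), and 2 had values that did not overlap between the groups (27.1%). DESeq2 called 0 members there, against 11.6% of the genes to which it gave an adjusted p. The median log2 fold change of the members was 0.37, with 8 above and 2 below 0, and that of all genes was 0.07.

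In FV 100 against senescent cells 0 members were called by edgeR (2.69% of all genes) and 1 by DESeq2 (5.66%), 0 passed the adjusted p alone (4.02%), 3 had an unadjusted p under 0.05 (19.8%), and 3 did not overlap (26.2%). In FV 300 against senescent cells the counts were 0 called by edgeR (1.64%) and 2 by DESeq2 (4.07%), 0 past the adjusted p alone (1.9%), 4 with an unadjusted p under 0.05 (15.3%) and 3 without overlap (19.6%). The median log2 fold change of the members was −0.09 at 100 µg/mL and −0.22 at 300 µg/mL, and that of all genes was −0.02 and 0. Between the doses 0 members were called by edgeR (0.00665% of all genes, with or without the fold limit), 0 by DESeq2 (0.00368%), and 0 had an unadjusted p under 0.05 (0.625%). The comparisons of each dose with senescent cells share the senescent samples, and those with control cells share the control samples.

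Against control cells, 3 members were called in FV 100 (19.7% of all genes) and 4 passed the adjusted p alone (26.6%). In FV 300, 2 were called (18%) and 4 passed the adjusted p alone (24.4%). DESeq2 called 3 members in FV 100 (22.2%) and 3 in FV 300 (20%). Tgfbr2 (both doses) and Tgfbr3 (100 µg/mL) were called higher and Ltbp1 (both doses) lower. With 10 members, these counts are near the share of all genes. In these bulk samples a change in the number of cells of a kind and a change in RNA per cell cannot be told apart.

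**Figure D2:**
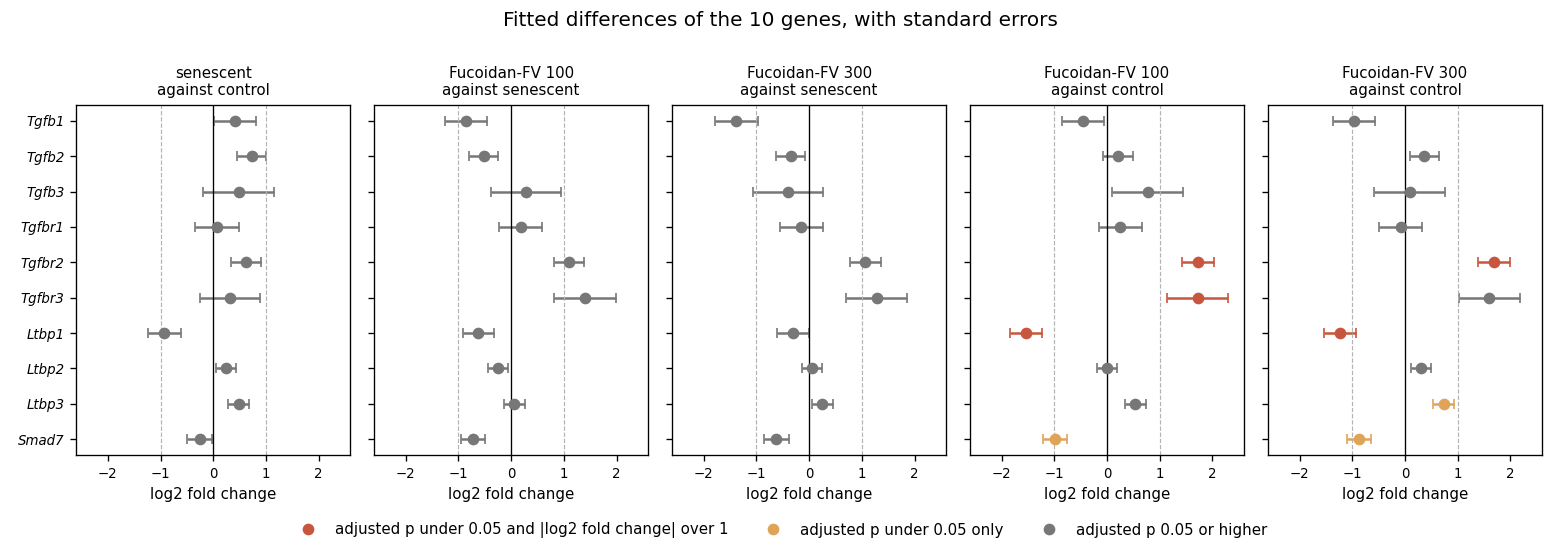
Fitted log2 fold change (horizontal axis, with its standard error as bars) of each of the 10 genes in 5 comparisons, coloured by whether it passed the adjusted p and the fold limit, which dashed lines mark at −1 and 1. Tgfbr2 and Ltbp1 are the genes called in both doses against control, at 1.73 and 1.69 for Tgfbr2 and at −1.54 and −1.23 for Ltbp1.

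Among the ligands, Tgfb1, the most studied TGF-β and a platelet and fibroblast product (ENSMUSG00000002603, GRCm39 chromosome 7, 25386390 to 25404506, plus strand), had its lowest group mean in FV 300. It stood at 31.1, 31.8 and 20.1 CPM in control mice 4, 5 and 6, at 27.3, 22.6 and 60.7 CPM in senescent cells, at 19.4, 26.5 and 15 CPM in FV 100 and at 8.1, 17.6 and 16.8 CPM in FV 300. The 3 FV 300 values lay under every senescent and every control value, FV 100 overlapped both groups, and the value of senescent mouse 6 was the highest of all. The difference of FV 300 from senescent cells was −1.38 on the log2 scale (SE 0.41, adjusted p = 0.109), lower in 3 of 3 mice, and that of FV 100 was −0.86 (SE 0.40, adjusted p = 0.256). Neither passed the edgeR test, though DESeq2 called FV 300 (adjusted p = 0.0288). Without senescent mouse 6 the differences were −0.76 (adjusted p = 0.463) and −0.13 (adjusted p = 0.89). With offsets for single-transcript sequence, length and GC content, an alternative chosen after seeing the data, they were −1.27 (adjusted p = 0.00976) and −1.05 (adjusted p = 0.0194). Senescent and control cells differed in Tgfb1 by 0.41 (SE 0.40, adjusted p = 0.588), and by −0.14 without senescent mouse 6.

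Tgfb2, which differs from the other ligands in needing betaglycan for efficient receptor binding (ENSMUSG00000039239, chromosome 1, 186354985 to 186438294, minus strand), was higher in the senescent samples of mice 4 and 5 than in any other sample. Its values were 54.4, 92.4 and 111 CPM in control, 133, 195 and 98.3 CPM in senescent, 99.0, 106 and 91.5 CPM in FV 100 and 127, 118 and 87.6 CPM in FV 300 samples. The groups overlapped, because senescent mouse 6 lay inside the control range. The difference of senescent from control cells was 0.73 (SE 0.28, adjusted p = 0.12) and did not pass the test, while it was 0.93 (adjusted p = 0.0447) without senescent mouse 6 and 0.81 (adjusted p = 0.0171) with the sequence offsets. FV 100 differed from senescent cells by −0.52 (SE 0.28, adjusted p = 0.332) and FV 300 by −0.35 (SE 0.28, adjusted p = 0.621).

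Tgfb3, a ligand of developing palate, lung and connective tissue (ENSMUSG00000021253, chromosome 12, 86102756 to 86126301, minus strand), varied more within groups than between them. It stood at 218, 171 and 30.6 CPM in control, 193, 104 and 290 CPM in senescent, 256, 353 and 106 CPM in FV 100 and 47.5, 251 and 147 CPM in FV 300 samples. Every pair of groups overlapped, and the lowest adjusted p of the 6 comparisons was 0.432, for FV 100 against control (0.77, SE 0.68). In the libraries 5(1) and 5(2) of the same control mouse it was at 63.6 and 292 CPM, a log2 difference of 2.2, which is larger than any fitted difference of this gene between groups. The level of Tgfb3 followed the single-transcript index of the library: the 4 libraries with the lowest index (−1.21 to −0.79) held 30.6 to 104 CPM and the 5 with the highest (0.41 to 0.99) held 218 to 353 CPM. Differences in Tgfb3 between the groups were not detectable beside this spread.

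**Figure D3:**
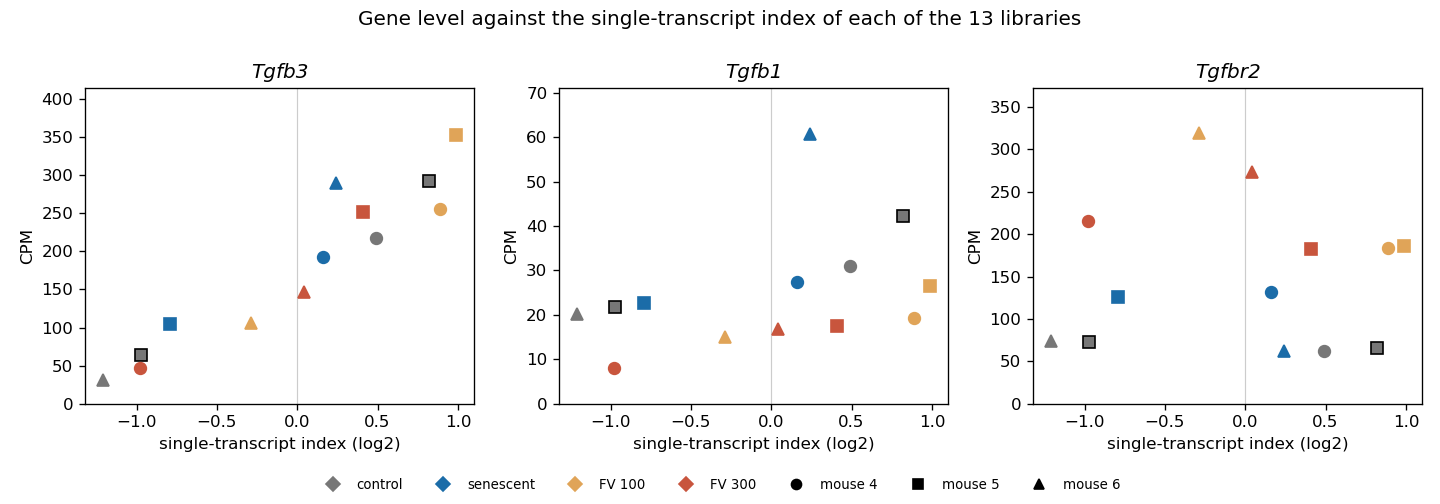
CPM of Tgfb3, Tgfb1 and Tgfbr2 (vertical axes) in each of the 13 libraries against the single-transcript index of that library (log2, the median deviation of genes with over 75% single-transcript sequence less that of genes with under 50%). Colours give the group, shapes the mouse, and the black-edged squares are the libraries 5(1) and 5(2) of 1 control mouse, which hold 63.6 and 292 CPM of Tgfb3 but 73 and 66.1 CPM of Tgfbr2.

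Of the receptors, Tgfbr2 gave the clearest values of all members. This gene (ENSMUSG00000032440, chromosome 9, 115913361 to 116004800, minus strand) encodes the constitutively active type II kinase that binds ligand first. It was at 62.1, 71.4 and 74.4 CPM in control, 132, 126 and 62.3 CPM in senescent, 184, 186 and 319 CPM in FV 100 and 215, 183 and 273 CPM in FV 300 samples. All 6 FV samples lay above all 6 others, and senescent mouse 6 was the 1 senescent sample inside the control range. Tgfbr2 rose from control to FV 100 by 1.73 (3.31-fold, SE 0.30, adjusted p = 0.000951) and from control to FV 300 by 1.69 (3.23-fold, SE 0.30, adjusted p = 0.00118), in 3 of 3 mice each, and was called in all 17 alternatives of both comparisons.

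Against senescent cells the difference in Tgfbr2 was 1.10 at 100 µg/mL (2.15-fold, SE 0.29, adjusted p = 0.0517) and 1.07 at 300 µg/mL (2.09-fold, SE 0.29, adjusted p = 0.0869), higher in 3 of 3 mice at each dose. Neither passed the edgeR test, and DESeq2 called both (adjusted p = 0.0069 and 0.02). At 100 µg/mL the adjusted p was 0.0394 without senescent mouse 6 (log2 fold change 0.95) and 0.0334 without senescent mouse 4 (1.44), and over all alternatives it ran from 0.000257 to 0.156. Without senescent mouse 6 the FV 300 difference was 0.83 (adjusted p = 0.0755), and over all alternatives the adjusted p at 300 µg/mL ran from 0.00107 to 0.309. With the sequence offsets the differences were 0.99 (adjusted p = 0.00585) at 100 µg/mL and 0.80 (adjusted p = 0.0194) at 300 µg/mL, both under the fold limit. Senescent and control cells differed by 0.62 (SE 0.29, adjusted p = 0.197), and by 0.91 (adjusted p = 0.00854) without senescent mouse 6. The doses differed by −0.04 (SE 0.29, adjusted p = 0.983).

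Tgfbr1, the type I receptor kinase that phosphorylates SMAD2 and SMAD3 (ENSMUSG00000007613, chromosome 4, 47353134 to 47414931, plus strand), kept to a narrow range apart from 1 sample. It was at 29.2, 26.0 and 19.6 CPM in control, 32.3, 38.2 and 8.12 CPM in senescent, 29.3, 28.0 and 31.6 CPM in FV 100 and 23.3, 27.5 and 20.2 CPM in FV 300 samples. The lowest value was again that of senescent mouse 6, and the highest that of senescent mouse 5. The fitted differences from senescent cells were 0.18 (SE 0.41, adjusted p = 0.862) and −0.15 (SE 0.41, adjusted p = 0.916), and turned to −0.10 and −0.52 without senescent mouse 6.

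The level of the type II relative to the type I receptor therefore differed between samples. Per transcript length, Tgfbr2 was at 1.95, 2.1 and 2.41 times Tgfbr1 in control mice 4, 5 and 6, at 2.74, 1.95 and 7.46 times in senescent cells, at 5.32, 5.75 and 6.89 times in FV 100 and at 4.86, 5.18 and 11.4 times in FV 300. Every FV sample had a ratio above every control sample and above senescent mice 4 and 5. The ratio of senescent mouse 6 lay among those of the FV samples, with both receptors low (13.5 TPM of Tgfbr2 and 1.81 TPM of Tgfbr1).

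**Figure D4:**
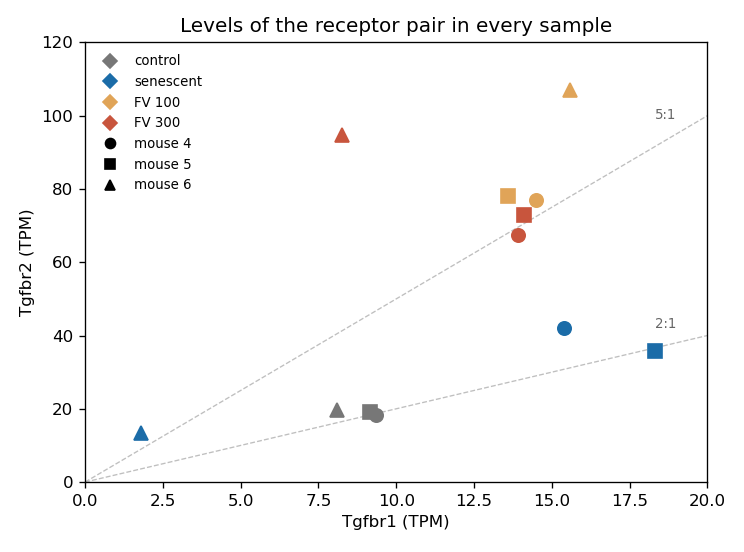
TPM of Tgfbr2 (vertical axis) against TPM of Tgfbr1 (horizontal axis) in each of the 12 samples, with colours for the group, shapes for the mouse, and dashed lines where the ratio is 2 and 5. The FV samples lie at 67.5 to 107 TPM of Tgfbr2, above the senescent samples at 13.5 to 42.1 TPM and the control samples at 18.2 to 19.6 TPM.

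Tgfbr3, the proteoglycan co-receptor betaglycan (ENSMUSG00000029287, chromosome 5, 107249402 to 107437623, minus strand), had the lowest mean TPM of the members. Its values were 8.67, 5.30 and 5.12 CPM in control, 12.5, 9.53 and 1.80 CPM in senescent, 18.8, 13.2 and 31.0 CPM in FV 100 and 25.8, 10.2 and 21.9 CPM in FV 300 samples. FV 100 lay above both untreated groups without overlap, and FV 300 overlapped senescent cells through mouse 5. It rose from control to FV 100 by 1.72 (3.30-fold, SE 0.58, adjusted p = 0.0433), a call that 11 of 17 alternatives kept. Among the fits that lost it were those without control mouse 5 (adjusted p = 0.101) or 6 (0.0902) and without FV 100 mouse 4 (0.079) or 6 (0.149). The fit with the mouse as a replicate block lost it too (0.0504). From control to FV 300 the difference was 1.60 (SE 0.58, adjusted p = 0.0616) and did not pass, while 7 of 17 alternatives called it, among them DESeq2 (adjusted p = 0.0209) and the sequence offsets (0.0336). Against senescent cells Tgfbr3 differed by 1.40 at 100 µg/mL (SE 0.58, adjusted p = 0.197), by 1.28 at 300 µg/mL (SE 0.58, adjusted p = 0.312), and by 1.04 and 0.83 without senescent mouse 6, where Tgfbr3 was lowest.

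Among the latency proteins, Ltbp1 (ENSMUSG00000001870, chromosome 17, 75312519 to 75699507, plus strand), which binds all 3 latent ligands and places them on fibrillin and fibronectin fibres, was highest in control cells. It was at 454, 349 and 339 CPM in control, 285, 202 and 113 CPM in senescent, 149, 101 and 142 CPM in FV 100 and 219, 136 and 133 CPM in FV 300 samples. Every control value lay above every other value, and the other 3 groups overlapped each other. Ltbp1 fell from control to FV 100 by 1.54 on the log2 scale (SE 0.31, adjusted p = 0.00259), in all 17 alternatives. It fell from control to FV 300 by 1.23 (SE 0.31, adjusted p = 0.0106), a call lost in 1 of 17 alternatives, without FV 300 mouse 6 (adjusted p = 0.0538). The difference of senescent from control cells was −0.93 (SE 0.31, adjusted p = 0.068) and did not pass, with lower values in 3 of 3 mice. It was −0.63 (adjusted p = 0.11) without senescent mouse 6, −1.29 (adjusted p = 0.02) without senescent mouse 4, and −0.98 (adjusted p = 0.0264) with the mouse as a replicate block. Libraries 5(1) and 5(2) of control mouse 5 held 424 and 242 CPM, and with 5(1) alone the senescent difference was −1.02 (adjusted p = 0.0427). FV 100 and FV 300 differed from senescent cells by −0.62 (SE 0.30, adjusted p = 0.283) and −0.30 (SE 0.30, adjusted p = 0.716). These differences rested on senescent mouse 4, without which they were −0.10 and 0.11, and were −0.76 (adjusted p = 0.144) and −0.55 (adjusted p = 0.351) without senescent mouse 6. With the sequence offsets and the mouse as a replicate block together, both passed the adjusted p, at −0.63 (adjusted p = 0.00832) and −0.52 (adjusted p = 0.022).

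Ltbp3, which is secreted with latent TGF-β and is needed for normal bone and tooth (ENSMUSG00000024940, chromosome 19, 5790932 to 5808669, plus strand), ran the other way. It stood at 180, 203 and 272 CPM in control, 326, 284 and 305 CPM in senescent, 291, 268 and 396 CPM in FV 100 and 408, 308 and 376 CPM in FV 300 samples. All senescent and all FV 300 values lay above the control values, and FV 100 mouse 5 fell just under control mouse 6. Ltbp3 rose from control to FV 300 by 0.74 (1.66-fold, SE 0.20, adjusted p = 0.0183), under the fold limit, and the adjusted p was 0.0675 without FV 300 mouse 4 and 0.0616 without FV 300 mouse 6. The difference of senescent from control cells was 0.48 (SE 0.20, adjusted p = 0.156), and 0.69 (adjusted p = 0.0199) without control mouse 6. FV 100 differed from control by 0.54 (SE 0.20, adjusted p = 0.0642), and by 0.89 (adjusted p = 0.00286) without control mouse 6.

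Ltbp2, a fibrillin-associated matrix protein that carries no latent TGF-β (ENSMUSG00000002020, chromosome 12, 84829986 to 84923306, minus strand), varied little between groups. Its values were 1670, 1670 and 2130 CPM in control, 2330, 2340 and 1830 CPM in senescent, 1880, 1800 and 1790 CPM in FV 100 and 2670, 2250 and 1860 CPM in FV 300 samples. All groups overlapped control, and its largest fitted difference was 0.31 (SE 0.19), for FV 300 against FV 100 and against control (adjusted p = 0.97 and 0.259).

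Smad7, the inhibitory SMAD that TGF-β itself induces and that brings ubiquitin ligases to the receptors (ENSMUSG00000025880, chromosome 18, 75500374 to 75529006, plus strand), was lower in the FV groups. It was at 70.5, 52.8 and 65.4 CPM in control, 53.5, 46.2 and 58.3 CPM in senescent, 32.7, 38.3 and 24.2 CPM in FV 100 and 40.6, 34.6 and 27.8 CPM in FV 300 samples. All 6 FV values in CPM lay below all 6 others, while senescent and control cells overlapped (difference −0.26, SE 0.23, adjusted p = 0.548). In TPM FV 300 overlapped both untreated groups: FV 300 mouse 4 (44.8) lay above control mouse 5 (41.4) and senescent mouse 4 (42.5). Smad7 fell from control to FV 100 by 0.99 on the log2 scale (SE 0.23, adjusted p = 0.00625) and to FV 300 by 0.87 (SE 0.23, adjusted p = 0.0133), both under the fold limit. At 100 µg/mL the adjusted p was 0.0821 without control mouse 4 and 0.0636 without control mouse 6, and at 300 µg/mL it was 0.0866 and 0.0613 without these and 0.0708 without FV 300 mouse 6. Against senescent cells the differences were −0.73 (SE 0.23, adjusted p = 0.0879) and −0.62 (SE 0.23, adjusted p = 0.199), lower in 3 of 3 mice at each dose, and −0.49 at both doses without senescent mouse 6. With the sequence offsets they were −0.76 (adjusted p = 0.0964) and −0.43 (adjusted p = 0.384). Those offsets gave −1.10 (adjusted p = 0.00559) for FV 100 and −0.77 (adjusted p = 0.0358) for FV 300 against control cells.

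The other genes of the pathway were read from 4 lists. Of 24 genes that act in latency and activation (23 tested), 2 were called higher and 2 lower in senescent against control cells, where 8.42% of all genes were called. Dcn, the TGF-β binding proteoglycan decorin, rose from 1.06 ± 0.448 CPM (SD, n = 3) to 16.2 ± 5.79 CPM (log2 fold change 3.95, adjusted p = 0.00215). Itgb5, the β5 subunit of an integrin that can release latent TGF-β, rose from 450 ± 52.2 CPM to 991 ± 115 CPM (1.14, adjusted p = 0.00181). With the sequence offsets the Itgb5 difference was 0.98, under the fold limit. Mmp9, a gelatinase, fell by 3.22 (adjusted p = 0.0161, but 0.0875 without control mouse 6 and 0.0794 without senescent mouse 4). Fbn1, the fibrillin that anchors LTBPs, fell by 1.05 (adjusted p = 0.0368), a call that 11 of 17 alternatives kept. Among the fits that lost it were those without control mouse 5 (adjusted p = 0.0562) or 6 (0.0774) and without senescent mouse 4 (0.0572). It was also lost without senescent mouse 6 through the fold limit (log2 fold change −0.80), and with the mouse as a replicate block (adjusted p = 0.0712). The highest adjusted p of Fbn1 over all alternatives was 0.0949.

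In FV 100 against senescent cells 3 genes of that list were called higher and 0 lower by edgeR and by DESeq2, beside 2.69% and 5.66% of all genes called in either direction. Adamts1, a matrix protease that can activate TGF-β, rose from 97.9 ± 56.4 CPM to 766 ± 72.5 CPM (2.97, adjusted p = 0.00387), and Fbn2, the fibrillin of embryonic tissue, from 11.1 ± 4.64 CPM to 90 ± 11.9 CPM (3.01, adjusted p = 0.00719). These held in each of the 6 fits that left out 1 mouse. The third was Dcn (2.33, adjusted p = 0.0477), whose call was lost in all 6 such fits (adjusted p up to 0.171 without FV 100 mouse 6) and with the replicate block (0.0869). In FV 300, 2 genes were called higher and 0 lower, beside 1.64% of all genes: Adamts1 at 738 ± 77.9 CPM (2.91, adjusted p = 0.00501) and Fbn2 at 72.2 ± 22.2 CPM (2.69, adjusted p = 0.0146, but 0.0582 and 0.0607 without senescent mouse 5 or 6 and 0.0725 without FV 300 mouse 6). Over the 23 genes tested the log2 fold changes had a median of 0.16, −0.05 and 0.12 in these 3 comparisons, beside 0.07, −0.02 and 0 for all genes.

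Of 10 co-receptors and related receptors, 7 were tested, and 1 was called in senescent against control cells, beside 8.42% of all genes. This was Acvrl1, the type I receptor ALK1, which rose from 29.2 ± 5.25 CPM in control to 59.8 ± 6.64 CPM in senescent cells (1.04, adjusted p = 0.0218). It fell under the fold limit without control mouse 6 (0.91) or senescent mouse 5 (0.96), and with the sequence offsets (0.91). Of 18 SMAD transducers and regulators (17 tested), 0 were called by edgeR or DESeq2 in senescent against control or in FV 300 against senescent cells. With the sequence offsets 1 was called lower in each of these comparisons. The share of all genes called with those offsets was not counted. In FV 100 against senescent cells 1 was called by edgeR, beside 2.69% of all genes, and 0 by DESeq2 or with the sequence offsets. Tgif1, a repressor that binds SMADs, stood at 83.8 ± 7.01 CPM in senescent and 40 ± 6.14 CPM in FV 100 cells (−1.07, adjusted p = 0.00811), and was not called when any 1 senescent mouse was left out (−0.96, −0.88 and −0.90 without mice 4, 5 and 6) or without FV 100 mouse 5 (adjusted p = 0.0522). At 300 µg/mL the difference of Tgif1 was −0.98 (adjusted p = 0.0167), and −1.03 (adjusted p = 0.00161) with the sequence offsets, which called it.

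Genes that TGF-β is known to induce or repress in fibroblasts went both ways. Of the 40 listed and tested, 1 was called higher and 1 lower in senescent against control cells, 2 higher and 9 lower in FV 100 against senescent cells, and 2 higher and 6 lower in FV 300, where 8.42%, 2.69% and 1.64% of all genes were called. DESeq2 called 3 higher and 9 lower in FV 100 and 2 higher and 9 lower in FV 300. These counts stand beside 5.66% and 4.07% of the genes to which DESeq2 gave an adjusted p. With the sequence offsets 3 were called higher and 5 lower in FV 100 and 1 higher and 3 lower in FV 300. The share of all genes called with those offsets was not counted. The log2 fold changes of the 40 genes had a median of −0.02, 0.01 and −0.39 in the 3 comparisons, beside 0.07, −0.02 and 0 for all genes. In senescent cells Timp3, an inhibitor of metalloproteinases, rose from 346 ± 50.7 CPM to 1140 ± 278 CPM (1.72, adjusted p = 0.000177), and Adam12, a membrane protease, fell by 1.87 (adjusted p = 0.00221).

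With fucoidan, Timp1, another metalloproteinase inhibitor, fell by 2.62 at 100 µg/mL (from 1600 ± 762 to 260 ± 34.5 CPM, adjusted p = 0.00056) and by 2.57 at 300 µg/mL (to 270 ± 47.2 CPM, adjusted p = 0.000955), and this call held with every mouse left out in turn. Id1 (−2.97, adjusted p = 0.0198) and Id3 (−1.61, adjusted p = 0.0446), inhibitors of differentiation that BMP signals drive, were the other genes with the largest decreases at 100 µg/mL. Id1 lost its call in 5 of the 6 fits without 1 mouse and Id3 in all 6, where without senescent mouse 6 the adjusted p was 0.11 and 0.319, and Id3 also with the replicate block (0.0687). At 300 µg/mL the others were Tagln, the smooth muscle gene transgelin (−1.28, adjusted p = 0.0328), and Timp3 (−1.24, adjusted p = 0.00874). Tagln passed the adjusted p in 1 of the 6 fits without 1 mouse, and 8 of 17 alternatives called it. Its adjusted p was 0.157 without senescent mouse 6, 0.188 without FV 300 mouse 6 and 0.0544 with the replicate block. With the sequence offsets the Tagln difference was −0.94, under the fold limit. For Timp3 the adjusted p was 0.0604 without FV 300 mouse 6, and the difference was −0.95 without senescent mouse 4.

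Eln, elastin, rose by 1.90 at 100 µg/mL (adjusted p = 0.0378) and 2.30 at 300 µg/mL (adjusted p = 0.0243), and Col3a1, a fibrillar collagen, by 1.38 (adjusted p = 0.0164) and 1.17 (adjusted p = 0.0489). Of the 6 fits that left out 1 mouse, Eln passed the adjusted p in 1 at 100 µg/mL and in 3 at 300 µg/mL. Col3a1 passed it in 5 and in 1. The highest adjusted p of these fits was that without mouse 6 of the treated group, at 0.113 and 0.129 for Eln. For Col3a1 it was 0.0612 and 0.233. At 300 µg/mL the adjusted p of Col3a1 was 0.0716 with the replicate block, and 5 of 17 alternatives called it. With the sequence offsets the differences of Col3a1 were 1.03 (adjusted p = 0.0485) at 100 µg/mL and 0.96 (adjusted p = 0.073) at 300 µg/mL. The genes that follow a member most closely across samples were to be named only for a member called in senescent against control cells or in either dose against senescent cells, so none is named.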

How the data were processed

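RNA of 13 libraries from 12 samples was sequenced by the authors (TruSeq Stranded Total RNA), checked with FastQC 0.12.1, trimmed with Trimmomatic, aligned with STAR 2.7.11b to GRCm39 and counted with RSEM 1.3.1. The deposited expected counts per gene are not normalized. The deposited TPM values are scaled by RSEM for effective length and library and were used only for levels between genes. Whether RSEM counted by strand is not given in the sources used here. A joined table of the same libraries differed from them by at most 0.

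Expected counts were rounded, and the libraries of control mouse 5 were summed. Their counts differed by more than sampling noise, with a chi-square per gene of 161. Pairs of control libraries from different mice stood at 58.7, 61.7, 86.9, 123 and 171. Only the last of these was higher, so the libraries of control mouse 5 were less alike than most pairs from different mice. Genes were filtered with filterByExpr (minimum count 10, minimum total 15). Of 57010 gene identifiers, 56310 matched a symbol. Groups were compared in R 4.3.3 with edgeR 4.0.16 (quasi-likelihood test, TMM factors, 1 fit over 4 groups, Benjamini-Hochberg over 15034 genes), and calls needed an adjusted p below 0.05 with a log2 fold change beyond 1 in either direction. DESeq2 1.42.0 was an alternative. The members and gene lists were chosen with earlier results of these data known. Named beside the members were, per list and comparison, at most 3 called genes with the largest increase and 3 with the largest decrease. Also, 1 gene of the lists is counted with its list but is not reported here by name. SDs and p-values cover 3 mice per group, and whether these are separate embryos or litters is not given beyond the mouse number.

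The labels number the mice. The reported fit was unpaired, since the study's methods name no block, and the fit with the mouse as a replicate block is an alternative whose value stands beside a result where it changed the call. As a check, deviations from the mean of the group were correlated in the 18 pairs of same-numbered samples: r was between −0.204 and 0.425 with a median of −0.00625, and exceeded 0.1 in 8. Sequence offsets were set per gene and library from splines (4 degrees of freedom each) of the share of single-transcript sequence, exonic length and GC content, over genes with a mean count over 50.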

Additional observations from a re-analysis of the deposited data

How the results depend on the processing

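The members had 1020 log2 fold changes under the alternatives. Of these, 980 stayed called or stayed not called, and 0 reversed a called direction. A call (adjusted p and fold limit) that the reported value missed was gained in 33, and 7 lost a call. Differences that were not called could change sign and are counted among the 980. For example, Tgfb1 in senescent against control cells was 0.41 as reported and −0.14 without senescent mouse 6. For senescent against control cells, 0 members were called as reported and 1 (Ltbp1) with control library 5(1) alone, and leaving out 1 mouse gave 0 to 1 (Ltbp1, without senescent mouse 4). For FV 100 against senescent cells the count was 0 as reported, 1 with DESeq2, with RLE factors or with the libraries of control mouse 5 separate (Tgfbr2), 2 with no filter (Tgfbr2 and Tgfbr3), 2 with effective length offsets (Tgfb1 and Tgfbr2), 1 with the sequence offsets (Tgfb1), and 0 to 1 with 1 mouse left out. For FV 300 against senescent cells it was 0 as reported, 2 with DESeq2 and with no filter (Tgfb1 and Tgfbr2), 1 with effective length offsets or sequence offsets (Tgfb1), and 0 to 0 with 1 mouse left out. For FV 300 against control cells it was 2 as reported, 4 by the adjusted p alone, and 1 to 3 with 1 mouse left out (1, Tgfbr2, without FV 300 mouse 6). For FV 100 against control cells it was 3 and ran from 2 to 4 with 1 mouse left out. The cause of these differences was not tested. Apart from DESeq2, the share of all genes called under an alternative fit was not counted. With the mouse as a replicate block the counts were 0, 0 and 0 in the comparisons of senescent with control cells and of FV 100 and FV 300 with senescent cells, and with the sequence offsets and the replicate block together 1 (Tgfb1) at each dose against senescent cells. The block changed the calls of the members only for Tgfbr3 in FV 100 against control (adjusted p = 0.0504), and passed Ltbp1 in senescent against control by the adjusted p alone. Tgfbr3 rested on the fewest counts, and depth as a limit was not tested.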
